A study of Mus musculus with 20 samples.

Results

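Liver RNA of 5 mice fed a high-fat diet with fishmeal was compared with that of 5 mice fed a high-fat diet with salmon filet, 10 of the 20 mice of the series. The members are the libraries whose columns in the count table are headed FM or Salmon, which are mice 12, 13, 14, 16 and 20 with fishmeal and mice 22, 23, 25, 26 and 27 with salmon filet. All were female C57BL/6J mice that entered the study at 8 weeks of age, were made obese on a high-fat diet and were then randomised to their protein source. For the last 10 weeks, 50% of the protein of their isocaloric high-fat diets came from the named source, and the livers were taken at 28 weeks of age. Fishmeal is a dried meal, here made from the by-products of salmon, so both sources are salmon but hold different parts of the fish. Per the paper, the fishmeal diet also held more cholesterol and more added soybean oil than the salmon filet diet, and its fatty acids differed. Which of these differences goes with a change in RNA was not tested. In the same series, 5 chow mice and 4 beef mice, of the same strain, sex and age, give the levels outside the 2 fish diets (the beef mice on a high-fat diet with beef, the chow mice on chow throughout). A further library, that of mouse 31, is labelled as salmon filet while its column is headed Beef, so it was placed in no group and its values are given on their own. Each library is 1 mouse, and the groups lie at 1 time point, so the spread given here is that between mice. No label tells how the mice were caged or the libraries batched, so a cage or batch effect cannot be told apart from the diet.

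The libraries held 42717772 to 70266136 reads on genes with fishmeal and 51891738 to 60432246 with salmon filet, of which 93.5% to 94.8% and 93.3% to 95.0% lay on protein coding genes. Mitochondrial genes took 7.12% to 9.80% of the counts with fishmeal and 6.24% to 7.55% with salmon filet. The livers carried the markers of hepatocytes, with Alb, Apoa1, Ttr, Serpina1c and Tat adding up to 82789 to 107133 CPM with fishmeal and 80580 to 96591 CPM with salmon filet (CPM are counts scaled to library size). Of the 5 adipocyte markers, Car3 alone passed the filter on low counts, and of the 6 exocrine pancreas markers none did.

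Cells make cholesterol from acetyl-CoA through the mevalonate arm, which ends in farnesyl diphosphate, and the sterol arm, which runs from squalene to cholesterol. Nearly all of these enzymes are targets of SREBP2, a membrane-bound transcription factor that SCAP carries from the endoplasmic reticulum to the Golgi when membrane cholesterol is low and that INSIG proteins hold back when it is high. Its sister SREBP1c drives fatty acid synthesis and, in liver, responds to insulin and to oxysterols through LXR. The liver both makes cholesterol and clears it from the blood.

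With fishmeal, 24 protein coding genes were lower than with salmon filet and none was higher, among 13456 tested with edgeR at an adjusted p under 0.05, or 0.178% of the genes tested. Of these 24 genes, 15 encode enzymes of cholesterol synthesis. In each of the 24 genes every fishmeal mouse lay below every salmon mouse, a pattern that 0.803% of all protein coding genes showed, and each differed by more than 1.5-fold. The same values picked these 24 genes, so their separation describes them and is not further evidence. The log2 fold changes, fishmeal relative to salmon filet here and below, ran from -2.66 to -0.85. With DESeq2, 66 genes were lower (0.49%) and 12 higher (0.0892%), and all 24 genes were among the 66. At an unadjusted p under 0.05 edgeR gave 468 genes lower (3.48%) and 260 higher (1.93%).

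Of the 22 enzymes of cholesterol synthesis, 21 had a lower mean level with fishmeal, edgeR called 15 and DESeq2 19, and 20 reached an unadjusted p under 0.05. Their median log2 fold change was -1.33, against -0.00278 over all protein coding genes tested. In 17 of the 22 all fishmeal mice lay below all salmon mice.

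In the mevalonate arm, 7 of 9 enzymes fell. Fdps, farnesyl diphosphate synthase, had the lowest adjusted p of all genes together with Lss, and measured 3.14, 3.23, 2.40, 3.72 and 2.40 CPM with fishmeal and 12.4, 12.9, 15.2, 20.2 and 22.4 CPM with salmon filet. Even the highest fishmeal mouse was far under the lowest salmon mouse, and the groups differed 5.57-fold (log2 fold change -2.48 ± 0.19 (SE), adjusted p = 0.000136). Its gene (chr3:89093588-89101959, minus strand, GRCm38) lies for the most part inside the annotated gene Gm43738 on the same strand, and how a read in both was counted is not given in the sources used here. The small nuclear RNA gene Gm22935, inside Fdps, fell as well (log2 fold change -2.48 ± 0.42, adjusted p = 0.0371), at under 2 CPM in every mouse.

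Mvd, mevalonate diphosphate decarboxylase, measured 11.4, 6.82, 2.58, 5.29 and 4.41 CPM with fishmeal and 23.0, 22.2, 32.4, 34.5 and 32.8 CPM with salmon filet. Mouse 12 stood highest and mouse 14 lowest among the fishmeal mice, and the groups differed 4.76-fold (log2 fold change -2.25 ± 0.31, adjusted p = 0.0106). Idi1, the isomerase that makes dimethylallyl diphosphate, measured 28.0, 34.2, 17.6, 27.0 and 17.2 CPM with fishmeal and 87.6, 55.1, 65.8, 130.4 and 128 CPM with salmon filet (log2 fold change -1.92 ± 0.27, adjusted p = 0.0107). Salmon mice 26 and 27 were the highest and mouse 23 the lowest of that group, and no fishmeal mouse reached mouse 23.

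The kinases of the arm fell by less. Mvk, mevalonate kinase, ranged over 5.66 to 9.85 CPM with fishmeal and 14.5 to 17.2 CPM with salmon filet (log2 fold change -1.12 ± 0.16, adjusted p = 0.0119), and Pmvk, phosphomevalonate kinase, over 14.5 to 40.0 CPM with fishmeal and 52.8 to 78.5 CPM with salmon filet (log2 fold change -1.41 ± 0.21, adjusted p = 0.0186). Acat2, the cytosolic thiolase at the start of the pathway, ranged over 26.9 to 45.6 CPM with fishmeal and 49.5 to 77.4 CPM with salmon filet, the weakest call of the arm (log2 fold change -0.91 ± 0.16, adjusted p = 0.0433). It shares 65.6% of its transcript with Acat3 at 97% identity or more, and Acat3 did not pass the test (-0.13 ± 0.18, adjusted p = 0.969). Both other members of the arm missed the threshold. Hmgcs1, HMG-CoA synthase, measured 276, 362, 319, 239 and 338 CPM with fishmeal and 562, 404, 490.4, 896 and 1033 CPM with salmon filet. Its groups did not overlap, yet the salmon mice spread so far that the test gave log2 fold change -1.14 ± 0.24, adjusted p = 0.145, with DESeq2 giving an adjusted p of 0.00126. Ggps1, which turns farnesyl diphosphate into geranylgeranyl diphosphate for protein prenylation and not for sterols, lay at 10.9 to 13.9 CPM with fishmeal and 11.2 to 13.8 CPM with salmon filet, with a log2 fold change of 0.01 ± 0.10.

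From squalene on, 8 of 13 enzymes fell. Sqle, squalene epoxidase and the second control point of the pathway, measured 10.8, 16.3, 4.36, 8.68 and 5.08 CPM with fishmeal and 50.9, 45.1, 46.0, 66.3 and 75.3 CPM with salmon filet. It had the largest change of the 22 enzymes, 6.27-fold (log2 fold change -2.65 ± 0.32, adjusted p = 0.00427), and also a wide spread with fishmeal, with mice 12 and 13 above the other three. Lss, lanosterol synthase, measured 40.0, 34.0, 27.5, 32.7 and 33.0 CPM with fishmeal and 78.1, 76.0, 88.2, 93.2 and 92.9 CPM with salmon filet. Neither group spread far around its mean in Lss, and the groups differed 2.56-fold (log2 fold change -1.36 ± 0.11, adjusted p = 0.000136). Fdft1, squalene synthase, ranged over 46.0 to 72.1 CPM with fishmeal and 111 to 172 CPM with salmon filet (log2 fold change -1.30 ± 0.15, adjusted p = 0.00338). Its last part overlaps Ctsb on the opposite strand, and 33.8% of its transcript is near-identical to the copy Gm6781.

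Msmo1, Nsdhl and Hsd17b7 encode the enzymes that take the methyl groups off the first ring of the sterol. Msmo1 measured 60.9, 73.0, 41.7, 57.2 and 45.8 CPM with fishmeal and 135, 124, 138, 189 and 173 CPM with salmon filet (log2 fold change -1.45 ± 0.16, adjusted p = 0.00338). Nsdhl ranged over 17.2 to 36.6 CPM with fishmeal and 52.9 to 107 CPM with salmon filet (log2 fold change -1.55 ± 0.22, adjusted p = 0.0129). Hsd17b7 changed least of the called enzymes, from 35.4 to 42.9 CPM with fishmeal and 54.7 to 87.9 CPM with salmon filet (log2 fold change -0.85 ± 0.13, adjusted p = 0.0214). The lanosterol demethylase Cyp51 ranged over 28.9 to 61.1 CPM with fishmeal and 87.6 to 179 CPM with salmon filet (log2 fold change -1.56 ± 0.24, adjusted p = 0.0186). Dhcr7, which reduces the last ring double bond, ranged over 23.1 to 56.9 CPM with fishmeal and 86.7 to 113 CPM with salmon filet (log2 fold change -1.41 ± 0.19, adjusted p = 0.0077).

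The sterol arm also held 5 enzymes that missed the threshold, all with lower means with fishmeal. Sc5d, the sterol desaturase, had mice 12 and 23 meeting at 741 and 739 CPM (log2 fold change -0.64 ± 0.14, adjusted p = 0.162). Tm7sf2 and Lbr share the role of sterol reductase in the step after Cyp51, and Lbr is also a protein of the nuclear envelope. They gave log2 fold changes of -1.14 ± 0.25 (adjusted p = 0.19) and -0.36 ± 0.10 (adjusted p = 0.54). Ebp, the sterol isomerase, came last with -0.27 ± 0.16 (adjusted p = 0.92).

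The fit was then repeated with each mouse left out in turn. Among the 15 enzymes, Fdps, Mvd, Idi1, Fdft1, Sqle, Lss, Msmo1 and Dhcr7 stayed called in all 10 fits that left out 1 mouse. Mvk was lost without mouse 20 (adjusted p = 0.0539) and in the fit on all 4 groups (adjusted p = 0.422), and Nsdhl without mouse 13 or 20 (adjusted p = 0.0579 and 0.0605). Cyp51 was lost in 5 fits (without mouse 13, 16, 20, 26 or 27), Hsd17b7 in 6 (13, 14, 16, 20, 25 or 26), Pmvk in 7 (all but 12, 14 and 23) and Acat2 in 8 (all but 12 and 23), with adjusted p values of up to 0.0684, 0.0867, 0.0768 and 0.181. Under the 9 alternatives that kept all mice, Acat2 was called in 4 and Hsd17b7 in 7, with an adjusted p of 0.0976 for Hsd17b7 in the fit on all 4 groups. Without mouse 12 or without mouse 23 all 24 genes stayed called, among 34 and 32 genes in all. Without mouse 20 the count was 12, without mouse 13 it was 13, and without mouse 16, 25 or 26 it was 15, and in each of these fits every called gene was lower with fishmeal.

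**Figure D1:**
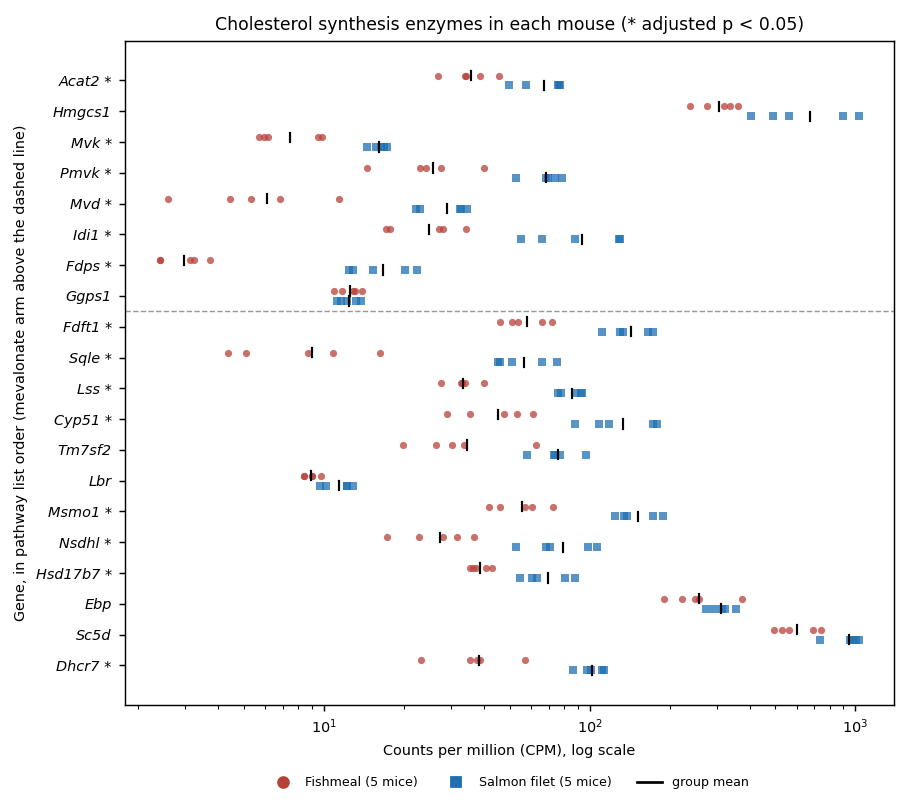
CPM (log axis) of 20 cholesterol synthesis enzymes in each of 5 fishmeal mice (red circles) and 5 salmon mice (blue squares), with black ticks at the group means and asterisks at the 14 enzymes drawn with an adjusted p under 0.05. In 15 enzymes no red point reaches a blue one, and Ggps1 and Ebp are among the 5 that overlap.

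Levels per length, in TPM, put the enzymes in an order that the fold changes did not follow. Sc5d was the most abundant, at 307 ± 32.6 TPM with fishmeal and 497 ± 77.9 TPM with salmon filet (mean ± SD, n = 5 each). With fishmeal the least abundant of the 22 by these values was Fdps, at 1.76 ± 0.331 TPM with fishmeal and 10.2 ± 2.98 TPM with salmon filet, followed by Sqle at 4.05 ± 2.29 TPM with fishmeal and 26.3 ± 7.07 TPM with salmon filet. Since Fdps lies for the most part inside Gm43738 on the same strand, its TPM may miss reads that fall in both genes. Its rank among the enzymes is therefore uncertain. With salmon filet, Sqle stood above Lss, Mvk, Fdps, Ggps1 and Lbr in mean TPM, though within 1 SD of Lss. With fishmeal it stood above Fdps alone.

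The 15 called enzymes varied together within the groups as well. After the group means were removed, 104 of their 105 pairs correlated positively over the 10 mice, with a median Pearson's r of 0.71, given as a description, since the enzymes come from the same libraries. The mean log2 CPM over the 22 enzymes, relative to the mean of both groups, was -0.30 in mouse 12, -0.48 in mouse 13, -1.02 in mouse 14, -0.61 in mouse 16 and -0.78 in mouse 20 with fishmeal. It was 0.51, 0.36, 0.59, 0.84 and 0.89 in salmon mice 22, 23, 25, 26 and 27. Mouse 14 was the lowest and mouse 27 the highest, and the groups did not overlap. Mouse 31 stood at 0.59, above the highest fishmeal mouse in 19 of the 22 enzymes and inside the range of the salmon mice in 13.

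Chow and beef mice place the 2 diets. On the same scale the chow mice lay at 0.59 to 1.57 and the 4 beef mice at -0.01 to 0.64. The mean level of the fishmeal mice was under that of the chow mice and that of the beef mice in 22 of 22 enzymes, whereas that of the salmon mice was under that of the chow mice in 20 and under that of the beef mice in 1. Sqle, for example, measured 116 ± 39.8 CPM in chow mice and 38.8 ± 13.5 CPM in beef mice (mean ± SD). Fishmeal against chow gave 19 enzymes called and a median of -1.83, where 1.95% of genes were called lower. Salmon filet against chow gave 1, Sqle, and a median of -0.45, where 2.35% were called lower. Fishmeal against beef gave 1 enzyme called and a median of -0.82, where 0.00744% of genes were called lower, and 20 of the 22 had an unadjusted p under 0.05. These comparisons share the fishmeal, salmon or chow mice with each other and are not independent.

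**Figure D2:**
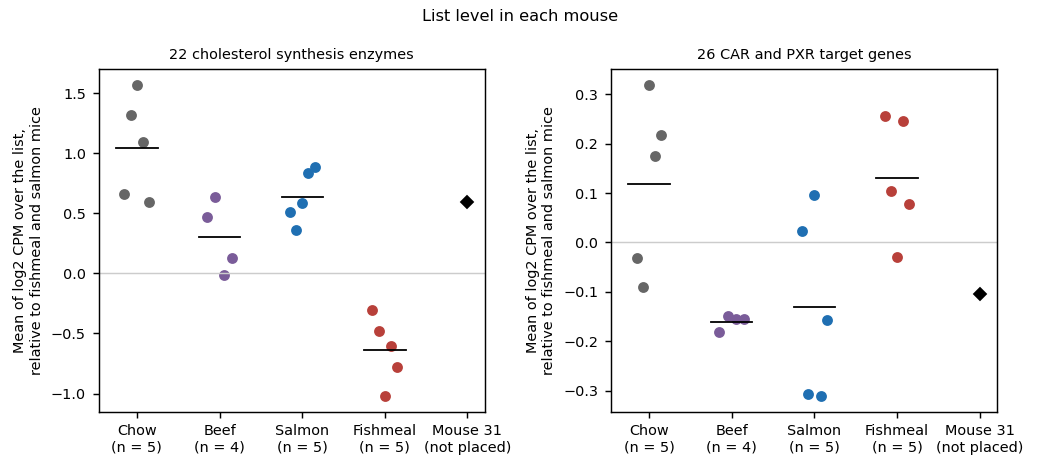
Mean log2 CPM over the 22 cholesterol synthesis enzymes (left) and over 26 CAR and PXR target genes (right), relative to the mean of the fishmeal and salmon mice, 1 point per mouse with a line at the group mean and mouse 31 as a diamond. On the left all fishmeal mice lie at -0.30 or lower and every other mouse at -0.01 or higher, while on the right the fishmeal and salmon mice overlap between -0.03 and 0.10.

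Promoter sequences of the enzymes are shown because these genes moved together. RefSeq promoters on GRCm38.p6, each of 250 bases before and 50 after the start site, were found for 17 of the 22 enzymes and 11 of the 15 called. The window was searched on both strands for TCACNCCAC (a form of the sterol regulatory element that SREBP binds), for CCAAT (bound by NF-Y) and for GGGCGG (bound by Sp1), none of which contains another. The letters CCAAT stood in the promoters of 10 of the 11 called enzymes, Acat2 being the exception, against 41.1% of all 27025 gene symbols with an entry and 37.4% of all 32851 promoters. Over all 17 enzymes with an entry, called or not, CCAAT stood in 16, among them Ggps1 and Ebp, which were not called. GGGCGG stood in 10 of the 11 and in 15 of the 17, against 38.2% of all symbols. Neither run of letters thus sets the called enzymes apart from the others. TCACNCCAC stood in none of the 11 and in 1.44% of all symbols, and among the 22 enzymes in Hmgcs1 alone, which says only that these letters are not in the other windows. The promoters of 4 enzymes follow, 5′ to 3′ on the strand of the gene, with TCACNCCAC and CCAAT in capitals, CCAAT on the other strand reading ATTGG. They are the one with the element, Hmgcs1, and those of called enzymes of both arms.
Hmgcs1 (chr13:119690101-119690400, plus strand): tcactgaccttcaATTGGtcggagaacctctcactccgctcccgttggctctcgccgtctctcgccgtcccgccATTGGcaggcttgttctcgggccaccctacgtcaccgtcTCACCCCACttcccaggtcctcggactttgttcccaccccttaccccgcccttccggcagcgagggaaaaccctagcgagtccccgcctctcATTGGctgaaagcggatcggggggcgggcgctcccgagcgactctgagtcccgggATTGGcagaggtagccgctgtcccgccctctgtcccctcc
Mvd (chr8:122443373-122443672, minus strand): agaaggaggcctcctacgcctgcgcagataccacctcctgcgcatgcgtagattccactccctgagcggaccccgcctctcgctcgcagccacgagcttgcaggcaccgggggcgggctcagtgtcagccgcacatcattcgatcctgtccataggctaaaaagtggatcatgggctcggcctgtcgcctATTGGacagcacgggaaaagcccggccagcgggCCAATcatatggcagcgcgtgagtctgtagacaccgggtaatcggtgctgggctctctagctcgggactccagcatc
Idi1 (chr13:8885356-8885655, plus strand): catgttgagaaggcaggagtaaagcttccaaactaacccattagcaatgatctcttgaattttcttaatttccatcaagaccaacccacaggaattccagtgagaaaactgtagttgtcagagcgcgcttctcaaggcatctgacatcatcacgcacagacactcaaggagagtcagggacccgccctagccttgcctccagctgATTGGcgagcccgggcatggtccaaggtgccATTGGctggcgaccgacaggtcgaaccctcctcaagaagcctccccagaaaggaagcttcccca
Lss (chr10:76531355-76531654, plus strand): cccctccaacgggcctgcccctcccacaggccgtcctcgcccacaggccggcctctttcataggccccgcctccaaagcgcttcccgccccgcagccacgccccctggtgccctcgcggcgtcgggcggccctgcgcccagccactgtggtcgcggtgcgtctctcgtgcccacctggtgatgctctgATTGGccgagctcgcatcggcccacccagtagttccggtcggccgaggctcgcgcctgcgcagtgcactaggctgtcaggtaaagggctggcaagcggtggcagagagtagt
The element of Hmgcs1 lies 137 to 129 bases before the start site, with CCAAT letters on the minus strand on both sides of it. Mvd and Idi1 each have a pair of CCAAT letters within 60 bases before the start, on opposite strands in Mvd and both on the minus strand in Idi1. Lss has one, on the minus strand, 62 to 58 bases before the start. A match is a run of letters and was not tested as a bound site.

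As lists, genes that govern SREBP and genes that move sterols changed less than the enzymes. Their median log2 fold changes were 0.02 and -0.11, against -1.33 over the 22 enzymes, though single members changed more. Of the 7 genes of SREBP control none was called by edgeR, while 2 had an unadjusted p under 0.05 and were called by DESeq2. The first is Insig1, the retention protein, itself a target of SREBP2. It measured 289, 161, 158, 340.2 and 204 CPM with fishmeal and 393, 478, 485, 469 and 467 CPM with salmon filet (log2 fold change -0.99 ± 0.20, adjusted p = 0.125, and 0.00122 with DESeq2). Mice 12 and 16 were the highest with fishmeal and still below the lowest salmon mouse, mouse 22. The second is Srebf2, the gene of SREBP2, which measured 52.3, 57.9, 38.7, 36.6 and 42.6 CPM with fishmeal and 70.6, 74.1, 61.8, 68.7 and 66.8 CPM with salmon filet (log2 fold change -0.58 ± 0.12, adjusted p = 0.145, and 0.00704 with DESeq2). By RT-qPCR on more mice of each group, the paper reports no difference in Srebf2 between the fishmeal, salmon filet and beef diets. Srebf1, Scap, Insig2, Mbtps1 and Mbtps2 had log2 fold changes of 0.16, -0.26, 0.07, 0.02 and 0.03, with unadjusted p values of 0.116 or higher.

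Of the genes of sterol uptake and trafficking, Stard4, a carrier of cholesterol between membranes, ranged over 93.6 to 103 CPM with fishmeal and 113 to 148 CPM with salmon filet (log2 fold change -0.43 ± 0.09, adjusted p = 0.124, and 0.000963 with DESeq2). Over the 14 genes of this list tested, edgeR called 1 lower and DESeq2 3, 4 had an unadjusted p under 0.05, all lower, and the median log2 fold change was -0.11. Scarb1, the HDL receptor, gave -0.07 ± 0.13.

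The lipogenesis list leant the same way. All 16 genes of lipogenesis had lower means with fishmeal, with a median log2 fold change of -0.58, 9 had an unadjusted p under 0.05, and 2 were called. Over all 13456 protein coding genes tested, 6814 had lower means, 3.48% were lower at an unadjusted p under 0.05, and 0.178% were called. Acss2, the acetyl-CoA synthetase of cytosol and nucleus, measured 108, 61.1, 56.1, 84.4 and 64.9 CPM with fishmeal and 241, 113, 355, 225 and 328 CPM with salmon filet (log2 fold change -1.75 ± 0.28, adjusted p = 0.0268). The highest fishmeal mouse, 12, and the lowest salmon mouse, 23, lay next to each other. Acacb, the acetyl-CoA carboxylase of the mitochondrial surface, measured 85.6, 51.5, 37.3, 52.2 and 65.2 CPM with fishmeal and 119.9, 137, 244, 131 and 182 CPM with salmon filet (log2 fold change -1.48 ± 0.23, adjusted p = 0.0268). Acss2 stayed called in 2 and Acacb in 4 of the 10 fits that left out 1 mouse, the lost calls reaching an adjusted p of 0.11 in both, without mouse 13. Without mouse 13, 14, 16, 20, 25 or 27 neither of them passed, Acss2 was also lost without mouse 22 (adjusted p = 0.068) or mouse 26 (adjusted p = 0.0552), and neither was lost without mouse 12 or mouse 23. Acss2 was called in all 9 other alternatives and Acacb in 8.

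Other members of the list had wide spreads. Fasn, fatty acid synthase, measured 648, 338, 383, 642 and 650.0 CPM with fishmeal and 629.6, 806, 1389, 946 and 1045 CPM with salmon filet, with mouse 22 among the fishmeal values (log2 fold change -0.85 ± 0.24, adjusted p = 0.496). Pnpla3, a lipid droplet protein, ranged over 1.325 to 4.59 CPM with fishmeal and 2.20 to 23.5 CPM with salmon filet, with salmon mouse 23 inside the fishmeal range (log2 fold change -2.25 ± 0.54, adjusted p = 0.263). Scd1, the stearoyl-CoA desaturase, ranged over 1404 to 8673 CPM with fishmeal and 4795 to 14700.2 CPM with salmon filet (log2 fold change -0.999 ± 0.45, adjusted p = 0.92). Of the 7 desaturases and elongases all had lower means, 4 had an unadjusted p under 0.05 and none was called by edgeR or DESeq2. Fads1, the delta-5 desaturase of polyunsaturated fatty acids, gave -0.59 ± 0.16 (adjusted p = 0.473) and Elovl5, an elongase, -0.49 ± 0.15 (adjusted p = 0.632).

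**Figure D3:**
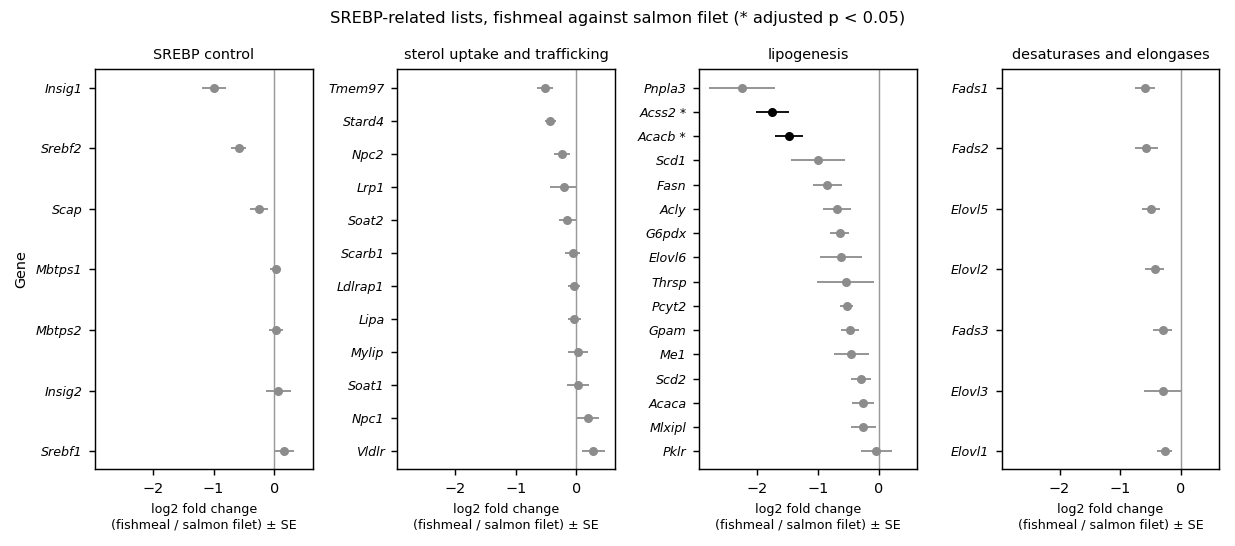
Log2 fold change of fishmeal against salmon filet (points) with its standard error (bars) for genes of SREBP control, sterol uptake and trafficking, lipogenesis, and desaturases and elongases, with black points and asterisks at an adjusted p under 0.05. All 16 lipogenesis points and all 7 desaturase and elongase points lie left of 0, and Acss2 and Acacb are called.

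LXR targets and efflux genes did not share a direction, with 5 of 9 lower, a median of -0.03 and none called. Pltp, the phospholipid transfer protein, ranged over 12.6 to 36.8 CPM with fishmeal and 27.5 to 103 CPM with salmon filet (log2 fold change -1.37 ± 0.35, adjusted p = 0.34, and 0.0139 with DESeq2). Abcg5, a subunit of the transporter that sends sterols into bile, ranged over 87.7 to 126 CPM with fishmeal and 66.4 to 87.3 CPM with salmon filet, with salmon mouse 27 touching the lowest fishmeal mouse at 87.3 against 87.7 CPM (log2 fold change 0.43 ± 0.12, adjusted p = 0.541). Abca1, which loads cholesterol onto HDL, gave 0.23 ± 0.12, Abcg1 0.24 ± 0.17, and the receptors Nr1h3 (LXR alpha) and Nr1h2 (LXR beta) -0.04 ± 0.12 and -0.16 ± 0.14. None of the 14 apolipoprotein and assembly genes had an unadjusted p under 0.05. Apob gave 0.24 ± 0.13 and Lipc, hepatic lipase, 0.17 ± 0.10.

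Among the called genes 6 stand outside the sterol and lipogenesis lists. Nfe2, a transcription factor best known from platelets and red cell precursors, had the largest change of the 24. It measured 0.432, 0.298, 0.166, 0.365 and 0.0891 CPM with fishmeal and 1.54, 1.60, 1.59, 1.98 and 2.04 CPM with salmon filet, a low level in both groups, and differed 6.34-fold (log2 fold change -2.66 ± 0.31, adjusted p = 0.00338). The 5 red blood cell markers had a median of -0.67, with 4 lower and none called, and added up to 84.5 to 269 CPM with fishmeal and 104 to 482 CPM with salmon filet. Their part in the Nfe2 value was not tested. In bulk liver, fewer cells of a type and less RNA per cell cannot be told apart. Nfe2 measured 0.742 CPM in mouse 31, between the groups. In its own comparison the paper reports Nfe2, Fabp5, Pdzk1ip1 and the kinase gene Pmvk as higher with salmon filet than with beef. For Nfe2, Fabp5 and Pdzk1ip1, levels with fishmeal against beef are not given here. For Pmvk, as for every enzyme of the pathway, the mean with fishmeal was also under those of the beef and chow mice.

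Fabp5, a fatty acid carrier, measured 12.1, 8.88, 4.85, 8.79 and 7.08 CPM with fishmeal and 24.5, 50.3, 38.0, 20.7 and 44.3 CPM with salmon filet. Salmon mice 22 and 26 were the lowest of their group and still well above all fishmeal mice (log2 fold change -2.09 ± 0.27, adjusted p = 0.00745). In mouse 31 it was 10.4 CPM, inside the fishmeal range. Rdh11, a retinol dehydrogenase, ranged over 22.8 to 46.5 CPM with fishmeal and 49.4 to 138 CPM with salmon filet (log2 fold change -1.53 ± 0.25, adjusted p = 0.0339), and was the sole call among 23 genes of retinoid metabolism, whose median was 0.05. Sytl5, a partner of Rab27 in vesicle traffic, ranged over 0.878 to 1.48 CPM with fishmeal and 2.02 to 5.67 CPM with salmon filet (log2 fold change -1.56 ± 0.26, adjusted p = 0.0339). Pdzk1ip1, a small membrane protein, ranged over 0.563 to 1.59 CPM with fishmeal and 2.13 to 3.91 CPM with salmon filet (log2 fold change -1.65 ± 0.27, adjusted p = 0.0339). Sgsm1, which was chosen after its values were seen, ranged over 2.65 to 4.68 CPM with fishmeal and 5.97 to 9.48 CPM with salmon filet (log2 fold change -1.01 ± 0.17, adjusted p = 0.0339). Rdh11, Sytl5, Pdzk1ip1 and Sgsm1 each stayed called in 2 of the 10 fits that left out 1 mouse, those without mouse 12 or mouse 23. In the other 8 their adjusted p values reached 0.13, 0.13, 0.121 and 0.13. Of the 9 other alternatives, Rdh11 was called in 9, Sytl5 in 7, Pdzk1ip1 in 6 and Sgsm1 in 7. Nfe2 and Fabp5 stayed called in all 10, and Fabp5 missed the threshold with mouse 31 counted as salmon filet (adjusted p = 0.0606).

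Outside the protein coding genes 4 more were called, all lower with fishmeal and likewise named after their values were seen. They are Gm22935 within Fdps, the long noncoding RNA genes 1810008I18Rik (log2 fold change -1.27 ± 0.13, adjusted p = 0.00289) and 4732419C18Rik (log2 fold change -0.79 ± 0.11, adjusted p = 0.00826), and Gm10642 (log2 fold change -2.21 ± 0.36, adjusted p = 0.0339). The first lncRNA measured 58.8, 53.3, 63.0, 48.3 and 60.1 CPM with fishmeal and 113, 118, 172, 121 and 159 CPM with salmon filet. It lies at chr7:65803111-65806449, plus strand, with no other annotated gene across it, and no fishmeal mouse of it reached a salmon mouse. Gm10642 overlaps Mindy2 on the opposite strand.

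Bile acid synthesis genes did not move as a list, with 6 of 12 lower, a median of -0.00300 and none called by edgeR. Cyp7a1, the rate-limiting enzyme of bile acid synthesis, measured 165, 54.3, 92.1, 71.1 and 72.4 CPM with fishmeal and 57.3, 128, 139, 45.5 and 38.9 CPM with salmon filet. Both groups spread over more than 3-fold in Cyp7a1, and its log2 fold change was 0.16 ± 0.39 (adjusted p = 0.987). Cyp7b1, the oxysterol hydroxylase of the alternative route, measured 21.3, 16.9, 18.6, 22.2 and 15.8 CPM with fishmeal and 12.1, 12.6, 14.5, 14.3 and 12.6 CPM with salmon filet, so that every fishmeal mouse was above every salmon mouse, as in 0.476% of all protein coding genes. It missed the threshold with edgeR (log2 fold change 0.52 ± 0.11, adjusted p = 0.126) and passed it with DESeq2 (adjusted p = 0.00495). Of 9 bile acid transport and FXR genes, 8 had higher means and none had an unadjusted p under 0.05.

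Most P450 and UGT genes, families that hold many enzymes of xenobiotic metabolism, had higher means with fishmeal, without a higher call by edgeR. These were 48 of 71 P450 genes and 15 of 19 UGT genes, while 6814 of all 13456 protein coding genes tested had lower means. The P450 genes were taken by symbol and also hold enzymes of sterol and bile acid synthesis, such as Cyp51 and Cyp7a1. Among the P450 genes tested, Cyp51 was called, lower, and 15 had an unadjusted p under 0.05 in the higher direction, where 1.93% of all genes did. DESeq2 called 3 of them higher. Among the UGT genes, which attach glucuronic acid, 9 had an unadjusted p under 0.05 in the higher direction, none was called by edgeR, and DESeq2 called 2 higher and 1 lower. The median log2 fold change was 0.15 over the P450 genes and 0.30 over the UGT genes. The genes of these families are near copies of each other in part, and the UGT1A genes share exons, so their values are uncertain one by one and not independent.

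The 26 targets of the drug receptors CAR and PXR had a median of 0.26, 22 had higher means, 5 had an unadjusted p under 0.05 and none was called by edgeR. Summed over the list they gave 10746 to 12152 CPM with fishmeal and 7563 to 10198 CPM with salmon filet, without overlap, whereas the mean log2 level over the list did overlap. Cyp2c50 and Cyp2c37, arachidonate epoxygenases, were called by DESeq2. Cyp2c50 ranged over 657 to 869 CPM with fishmeal and 376 to 615 CPM with salmon filet (log2 fold change 0.60 ± 0.16, adjusted p = 0.356, and 0.032 with DESeq2). Cyp2c37 ranged over 569 to 736 CPM with fishmeal and 444 to 568 CPM with salmon filet (log2 fold change 0.38 ± 0.11, adjusted p = 0.533, and 0.0351 with DESeq2), its lowest fishmeal mouse and its highest salmon mouse lying next to each other.

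The following genes of these families were chosen after their values were seen. Cyp3a11, the main drug-oxidising P450 of mouse liver, ranged over 1646 to 2692 CPM with fishmeal and 1007 to 1692 CPM with salmon filet (log2 fold change 0.53 ± 0.16, adjusted p = 0.632). Cyp2e1, the ethanol-oxidising P450, was the most abundant by counts and ranged over 6218 to 10343 CPM with fishmeal and 5782 to 7187 CPM with salmon filet (log2 fold change 0.40 ± 0.15, adjusted p = 0.897). Ugt2b38 ranged over 16.0 to 28.7 CPM with fishmeal and 11.4 to 15.1 CPM with salmon filet and Ugt1a9 over 22.4 to 28.6 CPM with fishmeal and 5.92 to 19.4 CPM with salmon filet, without overlap in either, with adjusted p values of 0.00899 and 0.0269 with DESeq2 and 0.19 and 0.335 with edgeR. Ugt1a5 went the other way, with 31.8 to 107 CPM with fishmeal and 87.9 to 190.1 CPM with salmon filet (log2 fold change -1.31 ± 0.32, adjusted p = 0.266, and 0.00764 with DESeq2). Ugt1a5 shares 65.4% of its transcript with Ugt1a1, which gave 0.32 ± 0.10.

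**Figure D4:**
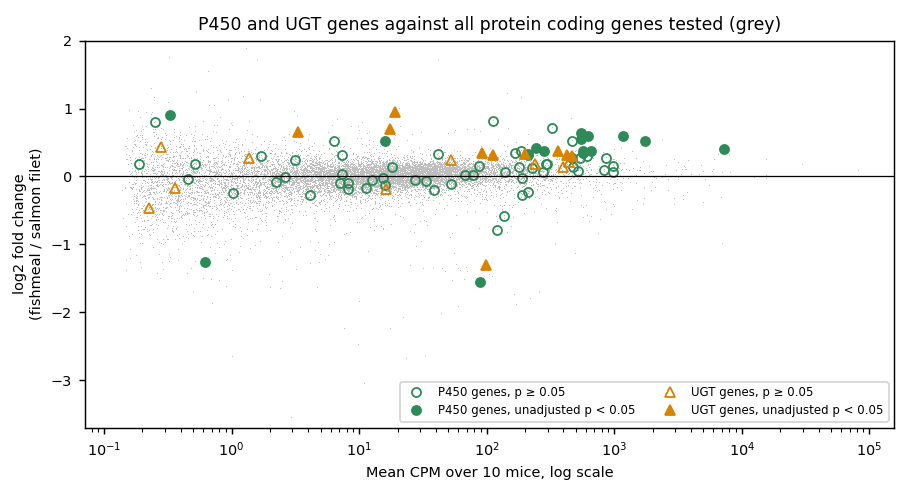
Log2 fold change of fishmeal against salmon filet over mean CPM (log axis) for 71 P450 genes (circles) and 19 UGT genes (triangles), filled where the unadjusted p is under 0.05, over all 13456 protein coding genes tested (grey dots). Most filled symbols lie above 0 at levels over 100 CPM, and Cyp51 and Ugt1a5 are the filled symbols near 100 CPM that lie below -1.

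Genes of fat oxidation, amino acids, redox, stress and feeding held no call. Of 25 PPAR-alpha targets and genes of fatty acid oxidation, 19 had higher means and 4 an unadjusted p under 0.05, all higher, with Acadm, medium-chain acyl-CoA dehydrogenase, at 0.38 ± 0.13 and Cyp4a10 at 0.64 ± 0.25 (adjusted p = 0.812 and 0.913). Of 26 genes of glycine, serine, proline and sulphur amino acid metabolism 1 had an unadjusted p under 0.05, Glyat (0.26 ± 0.12). Of 11 Nrf2 targets 1 had, Gclm (0.24 ± 0.11), and of 13 selenoprotein genes 2 had, both lower, Gpx3 (-0.67 ± 0.22) and Selenbp2 (-0.76 ± 0.31). Of 11 genes of ER stress and 8 of fibrosis none had. Of 9 genes of fasting and feeding 2 had, both lower, Igfbp1 (-1.04 ± 0.38), a secreted protein that insulin represses, and Sesn1 (-0.25 ± 0.09).

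None of the 18 circadian clock genes had an unadjusted p under 0.05. A phase score, the mean log2 CPM of Arntl, Npas2, Clock and Cry1 less that of Dbp, Nr1d1, Per2, Per3 and Ciart, ran from -2.57 to 1.77 with fishmeal and from -2.73 to 2.07 with salmon filet, with means of 0.03 ± 2.01 and 0.15 ± 1.90 (SD, n = 5 each). With that score as a covariate, 22 genes were called, 14 of them enzymes of cholesterol synthesis.

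Salmon mouse 23 stood far above the other mice in Mt2 and Lcn2. Of 17 metal handling genes 2 had an unadjusted p under 0.05, both metallothioneins and both lower, and of 10 acute phase genes 3 were lower and 1 higher by that measure, none of the 27 being called. Mt2, a metal-binding protein, measured 4.13, 7.61, 10.8, 2.78 and 5.39 CPM with fishmeal and 2.23, 150.4, 36.5, 4.51 and 6.73 CPM with salmon filet (log2 fold change -2.70 ± 0.97, adjusted p = 0.897). Lcn2, an iron-siderophore carrier induced in inflammation, measured 20.8, 18.7, 23.9, 9.19 and 13.2 CPM with fishmeal and 15.4, 284, 17.4, 23.3 and 10.1 CPM with salmon filet (log2 fold change -2.03 ± 0.84, adjusted p = 0.92). Without mouse 23 the log2 fold changes were -1.01 for Mt2 and 0.05 for Lcn2. The number of genes called without mouse 23 was 32, of which 16 were enzymes of cholesterol synthesis.

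Of the 18 genes that the study followed by RT-qPCR, 4 were called, all lower, among them Fdps and Fabp5. The study chose these genes, so their count is not independent evidence. Chrna4, a subunit of the nicotinic acetylcholine receptor, measured 2.79, 0.868, 0.563, 6.65 and 0.891 CPM with fishmeal and 17.0, 3.41, 30.7, 17.3 and 29.9 CPM with salmon filet. It had the lowest log2 fold change of the 18, yet fishmeal mouse 16 stood above salmon mouse 23, and the test gave log2 fold change -3.06 ± 0.69, adjusted p = 0.206 (0.0238 with DESeq2). Cyp1a1, the target of the aryl hydrocarbon receptor, lay under 1 CPM in every mouse (log2 fold change 0.90 ± 0.34, adjusted p = 0.897). Mlxipl, the gene of ChREBP, gave -0.25 ± 0.20, Cyp1b1 -0.24 ± 0.38, Il1b 0.16 ± 0.19 and Col1a1 -0.10 ± 0.38, each with an adjusted p of 0.926 or higher.

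None of the markers of hepatocytes, T cells, Kupffer cells, endothelial cells and stellate cells had an unadjusted p under 0.05. Of 5 markers of cholangiocytes all had lower means, with Krt19 at -0.82 ± 0.32, and of 5 of B and plasma cells Jchain gave -0.71 ± 0.16 (adjusted p = 0.189, and 0.00746 with DESeq2).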

How the data were processed

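Liver RNA of each mouse was made into strand-specific mRNA libraries. Per the study's methods and the submitters' processing notes, the authors trimmed reads with BBDuk, mapped with HISAT2 1.2.1 and counted by Ensembl gene in featureCounts 1.4.6-p1. The deposited counts are raw, for 55487 identifiers, and a second deposited table holds TPM, scaled by the authors to gene length and library size. Strand setting and treatment of reads in several genes are not given in the sources used here. The sources print GRCh38, but the identifiers are of mouse genes, and 55141 were paired with a symbol through a table of mouse gene names. Positions are from GENCODE M21 on GRCm38.

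After TMM normalisation, 16494 genes passed filterByExpr (minimum count 10) and were tested, two-sided, with the quasi-likelihood F-test of edgeR 4.0 in R 4.3 on the fishmeal and salmon mice alone, with Benjamini-Hochberg adjustment over all genes tested. A call is an adjusted p under 0.05 in a protein coding gene. Fits were also run on simulated counts, drawn for each gene independently, so variation that genes share was not covered. CPM use TMM factors over all 20 libraries. For the level of a list in a mouse, log2(CPM + 0.1) was averaged over the genes and the mean of the 10 mice subtracted. Alternatives were DESeq2 1.42 (the study's tool), limma 3.58 on log2(TPM + 1) for genes averaging 0.5 TPM or more, 2 other normalisations, 2 other filters, a fit on all 4 groups, mouse 31 as salmon filet, a clock covariate and each mouse left out. Near-identical stretches are those with 97% identity or more over at least 100 bases in blastn. The 20 pairs of libraries within groups had a chi-square of 42.1 to 229 per gene, above sampling noise, so each library counts as 1 sample.

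Members and lists were chosen with earlier results of these data known. The naming rule took called genes of the cholesterol, SREBP and uptake lists, the RT-qPCR list, the 12 called genes with the lowest and the 12 with the highest log2 fold change at a mean CPM of at least 1, and in other lists the called members or else the 2 with the lowest p. Further members of the cholesterol, SREBP, uptake and lipogenesis lists were named after their values were seen. A few members of the lists are not reported here by name and are left out of the plots of single genes, while the counts and medians of their lists hold them.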

Additional observations from a re-analysis of the deposited data

Results flagged for a closer look

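In 124 sets of 5 mice (the called genes and the list levels, each within a group), 7 held a mouse that stood apart, where chance gives about 1 in 20. All 7 are list levels, and no called gene is among them. The called genes were picked by a test that favours a small spread within groups, so their lack of such mice is partly built in. The share over all 124 sets is thus not that of the list levels alone. The values give, for each, the gap to the nearest mouse as a share of the range of the group. Salmon mouse 23 stood apart in the acute phase list (0.757), at 1.92 on the log2 scale against -0.61 to 0.00 in the other salmon mice. Salmon mouse 27 stood apart in fasting and feeding genes (0.824), at 0.60 against -0.07 to 0.05. Fishmeal mouse 12 stood apart in hepatocyte markers (0.79), glycine, serine, proline and sulphur amino acid genes (0.736) and metal handling genes (0.78), at 0.35, 0.33 and 0.17 while the other fishmeal mice were below 0. Fishmeal mouse 16 was low in LXR and efflux genes (0.802), at -0.45 against 0.03 to 0.15, and fishmeal mouse 13 in ER stress and ATF4 genes (0.8), at -0.30 against 0.03 to 0.11.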

How the results depend on the processing

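No paired analysis was made, because each diet was fed to different mice and the labels pair no mouse with another. In all fits above, the direction of all 28 called genes (24 protein coding) was lower with fishmeal, and 13 of the 28 were called in every fit that tested them. The number of protein coding genes called was 78 with DESeq2 (66 lower, 12 higher) and 22 to 29 under the other alternatives, and leaving out 1 mouse gave 12 to 34, all lower. One gene, Ly6a (chosen after its values were seen), was called higher, with mouse 31 as salmon filet, beside 21 lower. The number of cholesterol synthesis enzymes called was 13 to 19 under the alternatives and 9 to 17 without 1 mouse, with medians of -1.41 to -1.22. Lipogenesis genes called were 5 with DESeq2, 1 with mouse 31 as salmon filet and 0 to 3 without 1 mouse. P450 genes called were 4 with DESeq2 and 0 to 1 without 1 mouse, and UGT genes called were 3 with DESeq2 and 0 to 1 without 1 mouse. Changes of sign among named genes were found only in genes that no fit called. Without 1 mouse, Nr1h3 ranged from -0.142 to 0.00754, Cyp7a1 from -0.17 to 0.45, Cyp1b1 from -0.54 to 0.18, Col1a1 from -0.56 to 0.11, Lcn2 from -2.31 to 0.0544, Timp1 from -0.0187 to 0.77, S100a9 from -0.33 to 0.45 and Ggps1 from -0.0310 to 0.0598. With limma S100a9 was 0.0866 and Ggps1 -0.0237, and with mouse 31 as salmon filet Nr1h3 was 0.0103, S100a9 0.0486 and Ggps1 -0.0117. The cause of these shifts was not tested. With 5 mice a group, genes that differed little between the groups could not be told from the spread between mice.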
